A study of Mus musculus with 4 samples.

Results

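A set of 10 immune receptor genes that raise or restrain T cell activation were described across 4 RNA-Seq libraries of lung tumor-infiltrating CD4+ T cells. The 10 genes were the CD28 family members *Cd28*, *Icos*, *Ctla4*, *Pdcd1* and *Btla*, the nectin receptors *Tigit*, *Cd226* and *Cd96*, and the coinhibitory receptors *Lag3* and *Havcr2*. They were chosen by name from the 25239 gene symbols that each library lists, and 10 of 10 passed the filter on low counts that left 13919 genes to be tested. Of the libraries, 2 were labelled WT and 2 CD4/ALK4-KO, all on a C57BL/6 background and all from mice inoculated intravenously with LLC-OVA, Lewis lung carcinoma cells engineered to make ovalbumin. In CD4CreERT2+/-/Acvr1bfl/fl mice (CD4/ALK4-KO), tamoxifen switches on a Cre recombinase driven by the mouse *Cd4* promoter, which deletes floxed *Acvr1b*, the gene of the activin receptor ALK4. Whether the WT mice also received tamoxifen was not given in the sources used here, and Cre can act in any cell that uses the *Cd4* promoter. Lung tumors were excised after 18 to 22 days per the labels. CD4+ T cells were taken with a commercial kit from the leukocyte layer of a Percoll gradient, with 2 biological replicates per genotype, and whether animals were pooled was not stated.

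A T cell is activated through its antigen receptor, whose signal passes through the CD3 chains, together with a second signal from CD28 bound to CD80 or CD86. CTLA-4 competes with CD28 for the same ligands and restrains activation, ICOS is a costimulatory relative that binds ICOS ligand, and PD-1, encoded by *Pdcd1*, and BTLA carry inhibitory motifs in their tails. TIGIT and CD226 bind the same nectin-like ligands with opposite effects, CD96 shares a ligand with them, LAG-3 binds MHC class II, and TIM-3, encoded by *Havcr2*, is found on exhausted T cells and also on myeloid cells. Several of these receptors are held at a high level by T cells under lasting antigen exposure and by regulatory T cells, and many are targets of checkpoint antibodies.

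The libraries held 11823908 to 13943237 counts. The targeted gene *Acvr1b* did not separate the labels when scaled to library size. Its counts were 426 and 342 under the WT label and 322 and 445 under the CD4/ALK4-KO label (log2 fold change 0.16 ± 0.24 (SE), adjusted p = 0.66, edgeR's quasi-likelihood test, n = 2 libraries per genotype). Counts per gene cover all exons and cannot show whether the floxed exons were read, so directions below refer to the libraries as labelled. The defining markers of the sort were present and unequal: *Cd4* had 759 and 649 counts in the WT and 3654 and 4033 in the CD4/ALK4-KO libraries. Summed over 16 T cell identity genes, the level was 649 to 685 CPM (counts scaled to a common library size, adjusted by the TMM method) in WT and 3139 to 3406 CPM in CD4/ALK4-KO, and 16 of 16 genes were higher. Markers of other cells were present too, and no marker listed in the files was at 0 in all libraries. The 12 macrophage and monocyte markers summed to 6764 to 7963 CPM in WT and 6872 to 7395 CPM in CD4/ALK4-KO, with 3 of 12 higher and 0 lower. Stromal markers summed to 6173 to 6857 CPM in WT and 3823 to 4592 CPM in CD4/ALK4-KO, with 3 of 6 lower. Of all genes tested, 17.4% were higher and 15.4% lower by TMM. In these bulk samples, more T cells and more RNA per T cell cannot be told apart, and so each receptor is given on 2 scales, by TMM and per 1000 counts of *Cd3e*, *Cd3d* and *Cd3g* together.

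These CD3 chains, which sit side by side on chromosome 9 and encode the signalling subunits of the T cell receptor complex, summed to 2169 and 2023 counts in the WT libraries and 8870 and 7680 in the CD4/ALK4-KO libraries. The CD3 sum was thus 150 to 158 CPM in WT and 622 to 745 CPM in CD4/ALK4-KO, without overlap. The chains did not rise by the same amount: the log2 fold change by TMM was 2.92 ± 0.24 (SE) for *Cd3e*, 1.97 ± 0.22 for *Cd3d* and 2.16 ± 0.24 for *Cd3g*. *Cd3e* made up 6.96% and 5.73% of the CD3 counts in WT and 9.68% and 12.3% in CD4/ALK4-KO, and a scale set by it alone gives lower values for every receptor. *Cd3e* also shares 135 exon bases with the antisense gene *Gm48719*, whose reads cannot be told apart because the library kit does not mark strand. On the CD3 scale the median of all genes tested was -2.15 on the log2 scale, against -0.01 by TMM, so a receptor near 0 on this scale kept pace with the CD3 chains while most genes fell behind them. *Acvr1b* lay near that median, at -1.96, with 196 and 169 per 1000 CD3 counts in WT and 36.3 and 57.9 in CD4/ALK4-KO.

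By TMM, 9 of the 10 receptor genes had a higher level under the CD4/ALK4-KO label (adjusted p under 0.05) and 0 a lower one, where 17.4% of all genes tested were higher and 15.4% lower. The 9 log2 fold changes ran from 1.55 to 2.39, with a median of 2.01, and *Havcr2* was the exception at 0.14. In all 10 genes both CD4/ALK4-KO libraries lay above both WT libraries, as did 32.7% of all genes tested. Relative to the CD3 chains, 0 receptors were higher and 1, *Havcr2*, was lower, where 91.0% of all genes tested were lower and 0.352% higher. At an unadjusted p under 0.05 the counts on this scale were likewise 0 higher and 1 lower, and DESeq2 and edgeR's likelihood ratio test also called 0 higher. The median over the 10 receptors on the CD3 scale was -0.14. Both CD4/ALK4-KO libraries lay below both WT libraries in 4 receptors on this scale, against 94.3% of all genes tested. The CD3 scale is taken as known in the fit, so its own counting error and the unequal shares of the chains are not in these errors.

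**Figure D1:**
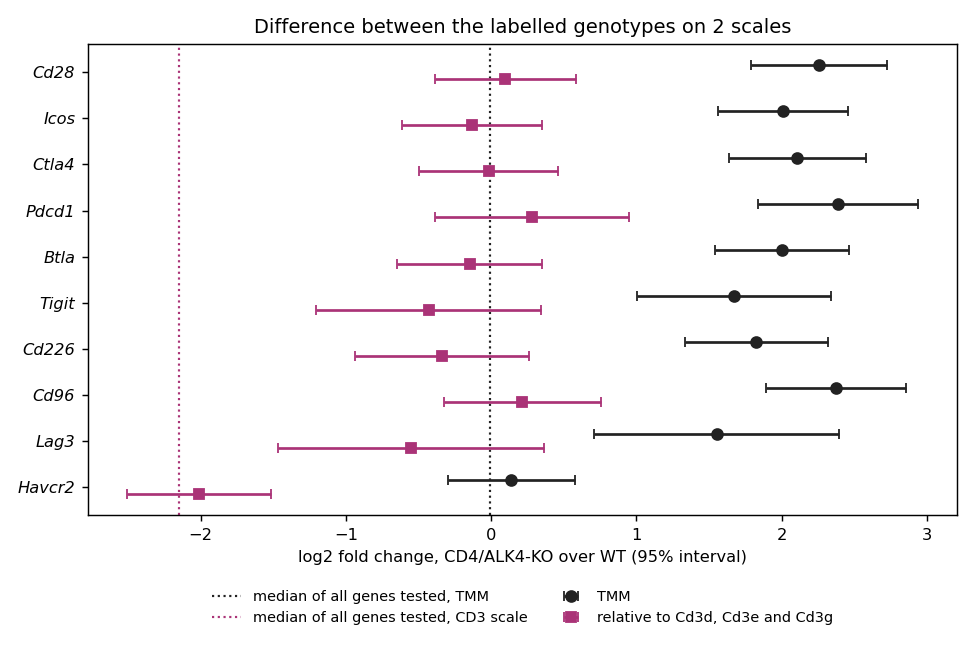
Log2 fold change of each receptor gene (CD4/ALK4-KO over WT, horizontal axis, with 95% interval) by TMM (circles) and relative to *Cd3d*, *Cd3e* and *Cd3g* (squares). Dotted lines mark the median of the 13919 genes tested on each scale. The 9 other receptors lie between 1.55 and 2.39 by TMM and around 0 on the CD3 scale, whereas *Havcr2* itself lies near the median of all genes on both, at 0.14 and -2.01.

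*Cd28*, *Ctla4* and *Icos* lie next to each other on the plus strand of chromosome 1 (GRCm38): *Cd28* at 60716800 to 60773359, *Ctla4* at 60887000 to 60915832 and *Icos* at 60977927 to 61000320, with gaps of 113.64 kb and 62.094 kb between them. *Cd28*, the main costimulatory receptor, was at 39.3 and 45.9 CPM in the WT libraries and at 230 and 178 CPM in the CD4/ALK4-KO libraries. It rose 4.78-fold by TMM (log2 fold change 2.26 ± 0.23 (SE), adjusted p = 1.51e-07). Per 1000 CD3 counts it stood at 249 and 307 in WT and 308 and 286 in CD4/ALK4-KO. These groups overlapped, and the log2 difference on the CD3 scale was 0.10, with a 95% interval from -0.39 to 0.58 (adjusted p = 0.70).

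*Icos*, which supports helper and regulatory T cells, was at 48.4 and 45.1 CPM in WT and 191 and 185 CPM in CD4/ALK4-KO, the tightest replicates among the 9 genes that rose. It rose 4.02-fold by TMM (log2 fold change 2.01 ± 0.22 (SE), adjusted p = 3.65e-07). *Icos* per 1000 CD3 counts stood at 306 and 302 in WT and 257 and 298 in CD4/ALK4-KO. The groups did not overlap, but the closest libraries differed by little and the interval on the CD3 scale ran from -0.61 to 0.35 around -0.13 (adjusted p = 0.59).

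*Ctla4*, which encodes the inhibitory receptor that regulatory T cells carry at a high level, was at 60.4 and 43.8 CPM in WT and 214 and 236 CPM in CD4/ALK4-KO. It rose 4.32-fold by TMM (log2 fold change 2.11 ± 0.23 (SE), adjusted p = 4.04e-07). *Ctla4* per 1000 CD3 counts ranged over the same values in both genotypes, 382 and 293 in WT and 287 and 379 in CD4/ALK4-KO. The log2 difference on the CD3 scale was -0.02 (95% interval -0.50 to 0.46), the closest to 0 of the 10 receptors.

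*Pdcd1* (chromosome 1, 94038305 to 94052553, minus strand), which encodes PD-1, was at 15.03 and 9.54 CPM in WT and 53.1 and 75.7 CPM in CD4/ALK4-KO. Its fold change by TMM was the largest of the 10 receptors, 5.24-fold (log2 fold change 2.39 ± 0.27 (SE), adjusted p = 5.72e-07). Relative to CD3 it varied within each genotype, at 94.97 and 63.8 per 1000 CD3 counts in WT and 71.3 and 122 in CD4/ALK4-KO. The groups overlapped, and the log2 difference on the CD3 scale was 0.28 (95% interval -0.39 to 0.95, adjusted p = 0.42). Single libraries moved this value: it was 0.61 without CD4/ALK4-KO replicate 1 (adjusted p = 0.0291) and -0.16 without CD4/ALK4-KO replicate 2. Leaving out WT replicate 1 gave 0.60, and leaving out WT replicate 2 gave 0.022.

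*Btla* (chromosome 16, 45224315 to 45257670, plus strand), whose product binds the herpesvirus entry mediator and also marks B cells, was at 40.7 and 34.4 CPM in WT and 167 and 135 CPM in CD4/ALK4-KO. It rose 4.01-fold by TMM (log2 fold change 2.00 ± 0.22 (SE), adjusted p = 6.03e-07). Per 1000 CD3 counts it was at 257 and 230 in WT and 223 and 217 in CD4/ALK4-KO, a narrow range without overlap. The difference of -0.15 on the CD3 scale lay within its interval of -0.65 to 0.35 (adjusted p = 0.57). The 8 B cell markers moved in the same direction as *Btla* by TMM, with 8 of 8 higher, against 17.4% of all genes tested. Their sums were 60.1 to 71.4 CPM in WT. In CD4/ALK4-KO they were 232 CPM in replicate 1 and 437 CPM in replicate 2, where *Btla* was at 167 and 135 CPM. On the CD3 scale, 2 of the 8 B cell markers were higher and 0 lower, against 0.352% and 91.0% of all genes tested. The part of B cells in the *Btla* result was not tested.

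**Figure D2:**
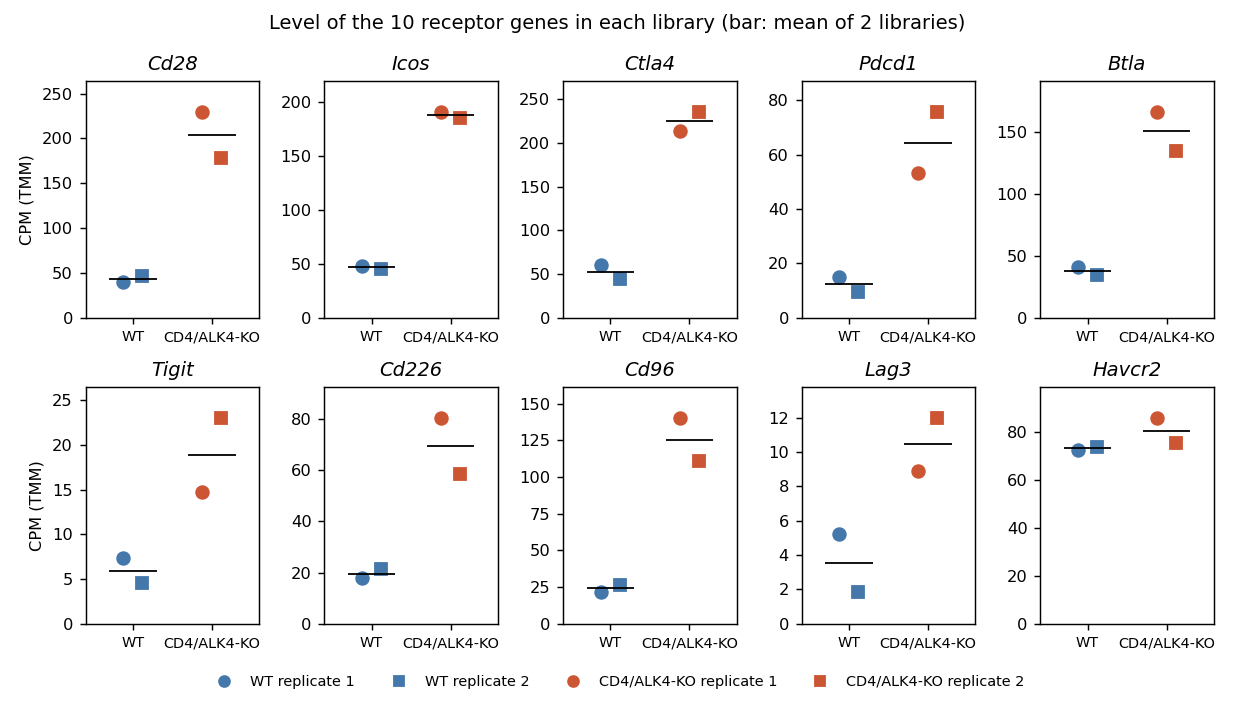
CPM (TMM-adjusted, vertical axes from 0, each with its own range) of the 10 receptor genes in the 2 WT (blue) and 2 CD4/ALK4-KO (orange) libraries, with circles for replicate 1, squares for replicate 2 and bars at the mean. The genotypes are apart in 9 genes, while the *Havcr2* libraries lie between 72.8 and 85.9 CPM.

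*Tigit* (chromosome 16, 43648867 to 43664146, minus strand) encodes an inhibitory receptor for the poliovirus receptor. Its counts were 100 and 61 in WT (95% exact Poisson intervals 81.4 to 122 and 46.7 to 78.4, for counting error only) and 175 and 284 in CD4/ALK4-KO (intervals 150 to 203 and 252 to 319). In CPM this was 7.30 and 4.51 against 14.7 and 23.0, a rise of 3.19-fold by TMM (log2 fold change 1.67 ± 0.32 (SE), adjusted p = 0.000391). Per 1000 CD3 counts *Tigit* stood at 46.1 and 30.2 in WT and 19.7 and 37.0 in CD4/ALK4-KO. The groups overlapped, with a log2 difference of -0.43 on the CD3 scale (95% interval -1.21 to 0.35, adjusted p = 0.28). The difference was -0.95 without CD4/ALK4-KO replicate 2 (adjusted p = 0.0143), -0.70 without WT replicate 2, -0.09 without WT replicate 1 and -0.047 without CD4/ALK4-KO replicate 1.

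*Cd226* (chromosome 18, 89176967 to 89272229, plus strand), the activating counterpart of *Tigit*, was at 17.9 and 21.3 CPM in WT and 80.4 and 58.5 CPM in CD4/ALK4-KO. It rose 3.54-fold by TMM (log2 fold change 1.83 ± 0.24 (SE), adjusted p = 4.31e-06). Per 1000 CD3 counts it was at 113 and 142 in WT and 108 and 94.0 in CD4/ALK4-KO, without overlap, and the log2 difference was -0.34 (95% interval -0.94 to 0.26, adjusted p = 0.27). *Cd96* (chromosome 16, 46035657 to 46120251, minus strand), a further nectin receptor shared by T and NK cells, was at 21.9 and 26.5 CPM in WT and 140 and 111 CPM in CD4/ALK4-KO. The rise by TMM was 5.18-fold (log2 fold change 2.37 ± 0.23 (SE), adjusted p = 1.1e-07). *Cd96* was the single receptor whose CD4/ALK4-KO libraries both lay above both WT libraries on the CD3 scale, at 138 and 177 per 1000 CD3 counts in WT and 188 and 178 in CD4/ALK4-KO. The gap between the closest libraries was small, and the log2 difference of 0.22 had an interval from -0.33 to 0.76 (adjusted p = 0.44).

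NK cells also carry CD96, TIGIT and CD226, and most of the 10 NK and innate lymphoid markers moved in the same direction as these genes by TMM. In all, 9 of the 10 were higher by TMM and 0 were lower, with sums of 570 to 584 CPM in WT and 928 to 942 CPM in CD4/ALK4-KO and a median log2 fold change of 1.73. On the CD3 scale their median was -0.42, with 0 higher and 3 lower, against 91.0% of all genes tested lower. Both CD8 T cell markers were higher by TMM as well, with *Cd8a* at 365 and 321 counts in WT and 1996 and 1285 in CD4/ALK4-KO. Neither was called on the CD3 scale. The part of these cells in the receptor results was not tested.

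*Lag3* (chromosome 6, 124904361 to 124911705, minus strand) lies 16.139 kb from *Cd4*, to which it is related, and encodes an inhibitory receptor for MHC class II. It had the fewest counts of the 10 receptors, 72 and 25 counts in WT (95% exact Poisson intervals 56.3 to 90.7 and 16.2 to 36.9) and 106 and 148 in CD4/ALK4-KO (intervals 86.8 to 128 and 125 to 174). In CPM it was at 5.25 and 1.85 in WT and 8.91 and 11.99 in CD4/ALK4-KO, a rise of 2.93-fold by TMM (log2 fold change 1.55 ± 0.41 (SE), adjusted p = 0.00557). The WT replicates did not overlap in their counting intervals, and the log2 fold change by TMM was 0.99 without WT replicate 2 (adjusted p = 0.155) and 2.49 without WT replicate 1. Per 1000 CD3 counts *Lag3* was at 33.2 and 12.4 in WT and 11.95 and 19.3 in CD4/ALK4-KO. This difference, -0.55 on the log2 scale, had the widest interval of the 10 receptors, from -1.47 to 0.36 (adjusted p = 0.24). It ran from -1.09 without WT replicate 2 to 0.34 without WT replicate 1, so 1 library turned its direction.

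*Havcr2* (chromosome 11, 46454935 to 46481255, plus strand) stood apart from the other 9 receptors. Its counts were nearly equal in all libraries, 997 and 1001 in WT and 1023 and 932 in CD4/ALK4-KO, or 72.8 and 74.0 CPM against 85.9 and 75.5 CPM. The CD4/ALK4-KO libraries were both above the WT libraries, but the log2 fold change by TMM of 0.14 ± 0.21 (SE) did not pass the test (95% interval -0.30 to 0.58, adjusted p = 0.67). Relative to CD3 *Havcr2* fell, per 1000 counts, from 460 and 495 in WT to 115 and 121 in CD4/ALK4-KO, a log2 difference of -2.01 ± 0.24 (SE, adjusted p = 7.03e-10). Its values by TMM and on the CD3 scale lay close to the medians of the macrophage and monocyte list, which were -0.00 and -2.15, and equally close to the medians of all genes tested. The part of myeloid cells in the level of *Havcr2* was not tested.

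**Figure D3:**
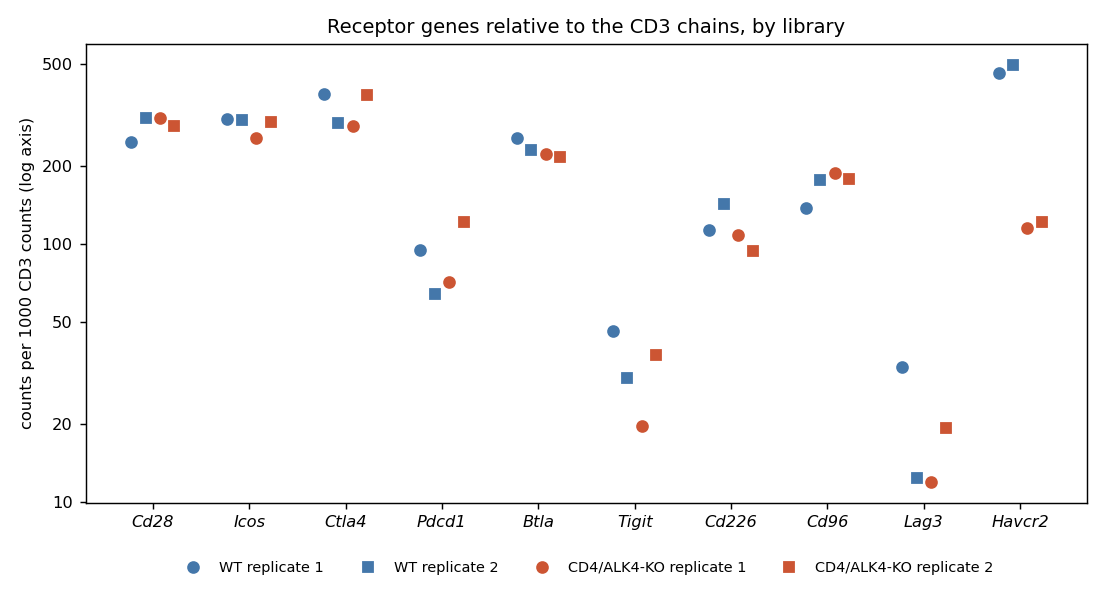
Counts of each receptor gene per 1000 counts of *Cd3d*, *Cd3e* and *Cd3g* (log axis) in the 2 WT (blue) and 2 CD4/ALK4-KO (orange) libraries, with circles for replicate 1 and squares for replicate 2. The genotypes lie at like values in 9 genes, with the widest spread in *Lag3*, and far apart in *Havcr2* (460 and 495 against 115 and 121).

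On the CD3 scale, differences between the replicates of a genotype were as large as those between genotypes for several receptors. *Ctla4*, *Icos*, *Pdcd1*, *Tigit* and *Lag3* were higher in WT replicate 1 than in WT replicate 2 and higher in CD4/ALK4-KO replicate 2 than in replicate 1. The ratio of these replicates was 1.30 in WT and 1.32 in CD4/ALK4-KO for *Ctla4*, 1.49 and 1.71 for *Pdcd1*, 1.53 and 1.87 for *Tigit*, and 2.69 and 1.61 for *Lag3*, whereas it was 1.01 and 1.16 for *Icos*. *Cd28*, *Cd226* and *Cd96* lay the other way in both genotypes, with ratios of 0.78 to 0.81 in WT and 0.87 to 0.95 in CD4/ALK4-KO. The 2 remaining receptors, *Btla* and *Havcr2*, had ratios on both sides of 1. The CD3 sum was 745 CPM in CD4/ALK4-KO replicate 1 and 622 CPM in replicate 2, which lifts replicate 2 on this scale. The order of *Icos* and *Havcr2* depended on the scale. By TMM, *Icos* was at 191 CPM in CD4/ALK4-KO replicate 1 and 185 CPM in replicate 2. *Havcr2* was by TMM higher in WT replicate 2 and in CD4/ALK4-KO replicate 1. *Foxp3*, the master factor of regulatory T cells, went with the first set: it stood at 30.9 and 13.8 per 1000 CD3 counts in WT and at 22.7 and 45.2 in CD4/ALK4-KO, with ratios of 2.23 and 1.99. By TMM, *Foxp3* rose by 2.69 on the log2 scale, from 67 and 28 counts to 201 and 347, and 8 of 8 regulatory T cell markers were higher, with sums of 115 to 128 CPM in WT and 554 to 577 CPM in CD4/ALK4-KO. Follicular helper T cells carry ICOS, PD-1 and BTLA. By TMM, 4 of 4 of their markers tested were higher, with sums of 27.7 to 29.0 CPM in WT and 89.5 to 113 CPM in CD4/ALK4-KO. On the CD3 scale, 1 of the 8 regulatory T cell markers was higher and 0 lower. Of the 4 follicular helper markers, 1 was higher and 1 lower on that scale. Among all genes tested, 0.352% were higher and 91.0% lower on the CD3 scale, and 17.4% higher and 15.4% lower by TMM. Over all genes tested, the difference between replicates 1 and 2 in WT correlated with that in CD4/ALK4-KO at -0.26 by TMM. By TMM, a crossed order of replicates was thus not particular to these receptors. The share of all genes with either order was not counted on either scale. Replicate numbers are only names here, and the part of regulatory and follicular helper T cells in these receptor values was not tested.

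The ratio of 2 receptors within a library needs no scaling, and 6 pairs that share ligands or a pathway were compared this way. With 2 libraries against 2, the smallest p that an exact permutation test can give is 0.333, so no pair could pass the threshold. The inhibitory *Ctla4* made up 60.6% and 48.8% of the *Ctla4* and *Cd28* counts in WT and 48.3% and 57.0% in CD4/ALK4-KO, with 95% exact binomial intervals of at most a few percentage points either side. The groups overlapped, and the mean log2 ratio differed by -0.12 (exact p = 0.667, adjusted p = 0.667). *Pdcd1* to *Cd28* gave ratios of 0.382 and 0.208 in WT and 0.231 and 0.426 in CD4/ALK4-KO, and *Icos* to *Cd28* gave 1.23 and 0.982 against 0.832 and 1.04. Both pairs overlapped between genotypes, with differences in the mean log2 ratio of 0.16 and -0.24 and pooled SDs of 0.62 and 0.23.

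Among the nectin receptors, the ratio of inhibitory *Tigit* to activating *Cd226* was 0.408 and 0.212 in WT and 0.183 and 0.393 in CD4/ALK4-KO, a difference of -0.13 in the mean log2 ratio with a pooled SD of 0.73. *Tigit* to *Cd96* was 0.333 and 0.170 in WT and 0.105 and 0.207 in CD4/ALK4-KO, and these groups overlapped too. *Cd96* to *Cd226* was the single pair of the 6 without overlap, with ratios of 1.22 and 1.25 in WT and 1.74 and 1.90 in CD4/ALK4-KO. *Cd96* thus made up 55.05% and 55.5% of the counts of this pair in WT (95% exact binomial intervals 50.8% to 59.3% and 51.6% to 59.4%) and 63.6% and 65.5% in CD4/ALK4-KO (61.7% to 65.4% and 63.4% to 67.5%). The ratio was 1.47-fold higher in CD4/ALK4-KO, a log2 difference of 0.56 with a pooled SD of 0.06, at the smallest p this design allows (exact p = 0.333, two-sided, adjusted p = 0.667 over 6 pairs).

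**Figure D4:**
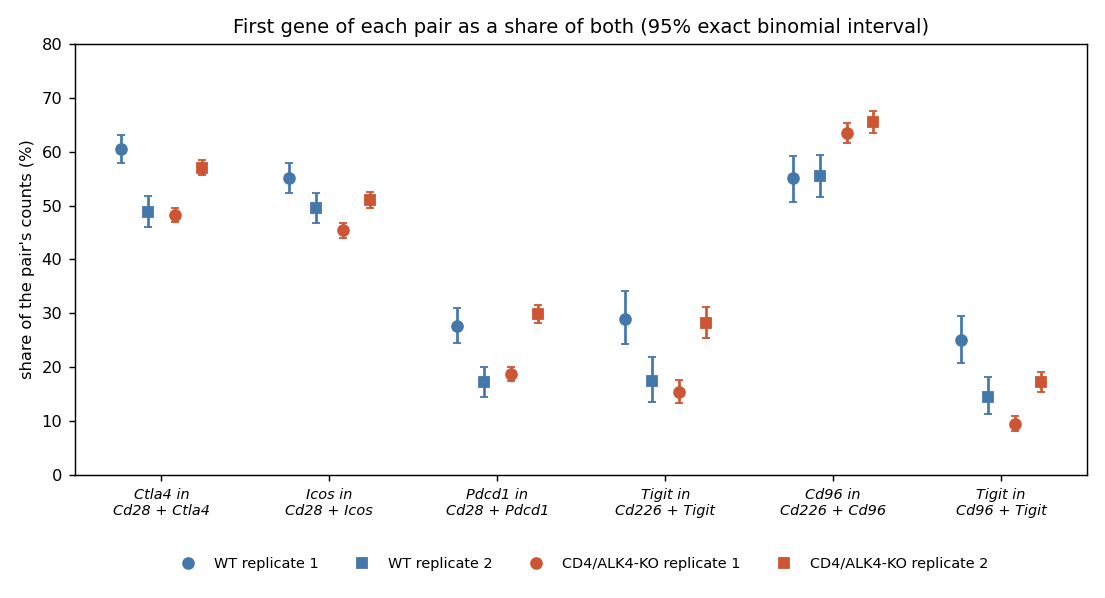
Share of the first gene in the summed counts of each of the 6 receptor pairs (percent, vertical axis) by library, with 95% exact binomial intervals for counting error only. The genotypes overlap in 5 pairs, and *Cd96* makes up 55.05% and 55.5% of the *Cd96* and *Cd226* counts in WT against 63.6% and 65.5% in CD4/ALK4-KO.

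To compare levels between the receptors, CPM were taken after division by the length of each gene's merged exons. In WT the highest level per length was that of *Havcr2*, at 27.0 ± 0.32 CPM per kilobase (SD, n = 2), followed by *Ctla4* at 22.4 ± 5.03. Next came *Icos* at 13.6, *Cd96* at 11.1, *Btla* at 11.1 and *Cd28* at 6.96 CPM per kilobase. *Tigit*, *Pdcd1*, *Cd226* and *Lag3* were lowest, at 6.42, 6.36, 4.00 and 1.68. *Cd96* and *Btla* did not differ beyond their spread, nor did *Cd28*, *Tigit* and *Pdcd1*. In CD4/ALK4-KO, *Ctla4* led with 96.6 ± 6.54 CPM per kilobase, ahead of *Cd96* (57.5) and *Icos* (54.9), whose libraries overlapped. *Btla* (44.4), *Pdcd1* (33.4), *Cd28* (33.3) and *Havcr2* (29.7) followed, of which the last 3 overlapped, and *Tigit*, *Cd226* and *Lag3* stayed lowest, at 20.5, 14.2 and 4.95. *Havcr2* moved from rank 1 to rank 7, *Pdcd1* from rank 8 to rank 5, and *Lag3* was at rank 10 in both. With the longest transcript in place of the merged exons, an alternative chosen after seeing the data, *Ctla4* was at rank 1 and *Havcr2* at rank 2 in WT. *Btla* was then at rank 4 and *Cd96* at rank 5. In CD4/ALK4-KO this put *Icos* at rank 2, *Cd96* at 3, *Cd28* at 4, *Btla* at 5 and *Pdcd1* at 6.

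**Figure D5:**
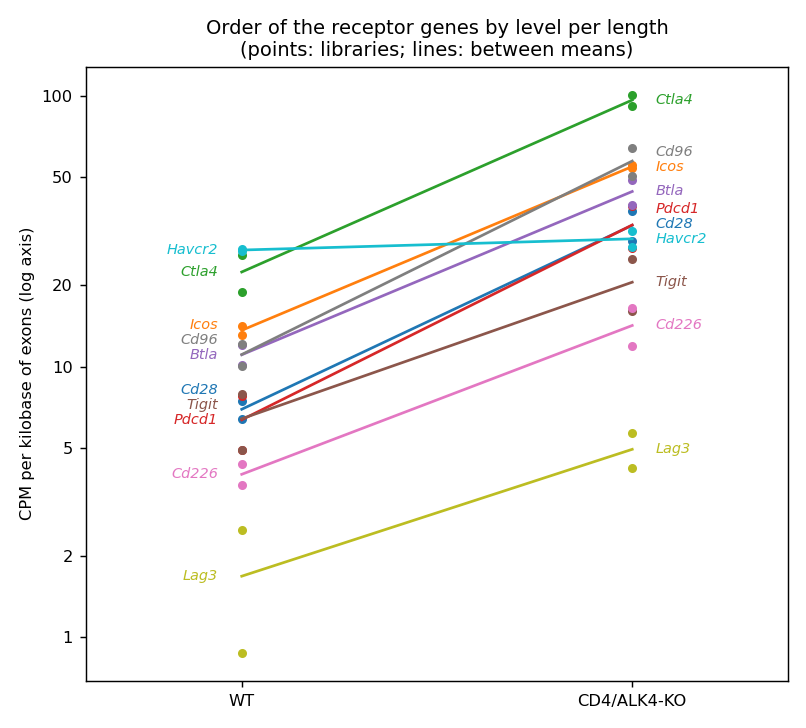
CPM per kilobase of merged exons (log axis) of the 10 receptor genes in WT (left) and CD4/ALK4-KO (right), with points for the libraries and lines between the means of 2 libraries. *Ctla4* is highest in CD4/ALK4-KO at 96.6 CPM per kilobase, *Lag3* is lowest in both genotypes, and the line of *Havcr2*, from 27.0 to 29.7, is nearly flat.

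Promoter sequences of 6 of the 10 receptors, *Ctla4*, *Pdcd1*, *Havcr2*, *Tigit*, *Btla* and *Cd96*, were in the RefSeq table used here (GRCm38.p6). All 6 are shown, to set the promoters of 5 receptors that rose by TMM beside that of *Havcr2*, which did not pass the test. The starts are those of that RefSeq table and can differ from the gene locations given above, which are those of GENCODE M21. The *Ctla4* stretch lies inside the span given above, 60887000 to 60915832. Each sequence is the 150 bases before the RefSeq start, read 5′ to 3′ along the gene, with capitals for the letters searched on either strand. These were GGAAA, the core of NFAT sites (TTTCC on the other strand), TGANTCA for AP-1, and TGTGGT for Runx factors (ACCACA on the other strand), none of which overlapped another. NFAT and AP-1 act together downstream of the T cell receptor and of CD28.
Ctla4, chr1:60908875-60909024, plus strand: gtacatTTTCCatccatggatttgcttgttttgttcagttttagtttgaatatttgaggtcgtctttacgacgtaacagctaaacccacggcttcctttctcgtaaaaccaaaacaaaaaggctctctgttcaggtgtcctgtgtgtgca
Pdcd1, chr1:94052554-94052703, minus strand: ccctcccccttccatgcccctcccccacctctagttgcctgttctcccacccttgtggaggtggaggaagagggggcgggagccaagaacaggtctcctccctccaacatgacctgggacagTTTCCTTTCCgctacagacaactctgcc
Tigit, chr16:43664185-43664334, minus strand: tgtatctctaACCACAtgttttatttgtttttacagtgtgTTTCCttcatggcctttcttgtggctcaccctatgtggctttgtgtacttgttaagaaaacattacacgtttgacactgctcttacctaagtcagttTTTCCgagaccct
Btla, chr16:45224187-45224336, plus strand: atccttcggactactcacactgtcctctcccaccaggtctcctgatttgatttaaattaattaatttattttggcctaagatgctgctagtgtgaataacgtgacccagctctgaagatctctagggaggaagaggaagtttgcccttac
Cd96, chr16:46120249-46120398, minus strand: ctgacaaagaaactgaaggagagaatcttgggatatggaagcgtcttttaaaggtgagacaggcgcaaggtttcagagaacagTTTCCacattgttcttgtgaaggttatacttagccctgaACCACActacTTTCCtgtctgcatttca
Havcr2, chr11:46454781-46454930, plus strand: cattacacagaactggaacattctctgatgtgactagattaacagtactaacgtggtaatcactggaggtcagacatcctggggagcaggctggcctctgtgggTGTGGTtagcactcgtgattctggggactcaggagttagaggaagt
Over 250 bases before the start, GGAAA occurred 4 times in *Cd96*, 2 times in *Tigit* and *Pdcd1*, 1 time in *Ctla4*, and 0 times in *Havcr2* and in *Btla*, so it did not part the receptors that rose from *Havcr2*. It is a common word, found in 55.6% of 32851 promoters of the same length. TGTGGT occurred 1 time each in *Tigit*, *Cd96*, *Btla* and *Havcr2*, against 14% of all promoters. TGANTCA was found in *Havcr2* alone of the 6, outside the stretch shown, against 6.75% of all promoters. The CD3 chains held GGAAA as well, 1 time in *Cd3g* and 2 times in *Cd3d* and *Cd3e*. A match is only a stretch of letters, and no binding was measured in these libraries.

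The ligands of the receptors, made mostly by antigen-presenting and tumor cells, moved less than the receptors by TMM. Of 16 ligand genes tested, 9 were higher and 2 lower, against 17.4% and 15.4% of all genes tested, with a median log2 fold change of 0.59. The largest rises were those of *Icosl*, the ligand of ICOS, at 1.92 and *Pdcd1lg2*, which encodes the PD-1 ligand PD-L2, at 1.77. *Nectin3*, a ligand of TIGIT, fell from 55.5 and 61.2 CPM to 12.1 and 15.6 CPM (log2 fold change -2.08, adjusted p = 9.79e-07), and *Hmgb1*, a ligand of TIM-3, fell by 0.90, a call lost without WT replicate 2 (adjusted p = 0.0583). In each of the lists here, the gene with the highest mean CPM over the 4 libraries was also named. Among the ligands this was *H2-Aa*, which encodes an MHC class II chain bound by LAG-3, at 0.57, a call that was lost with upper quartile scaling, with the replicate block and without either WT library (adjusted p = 0.0589, 0.152, 0.167 and 0.453). Relative to CD3, 14 of the 16 were lower and 0 higher, a share near the 91.0% of all genes tested.

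A list of 8 costimulatory genes held receptors of the tumor necrosis factor receptor family and *Cd40lg*, which encodes a ligand of that family. By TMM, 8 of 8 were higher, with a median log2 fold change of 2.26. Of all genes tested, 17.4% were higher and 15.4% lower by TMM. *Cd27* rose by 2.75 and *Tnfrsf25* by 2.61, and *Tnfrsf1b*, of the highest mean CPM, by 1.46. On the CD3 scale their median was 0.15, with 2 lower and 0 higher, against 91.0% of all genes tested lower. Of 13 other coinhibitory receptors tested, 9 were higher and 0 lower by TMM, with a median of 1.28. *Cd5*, a brake on T cell receptor signalling, rose from 20.1 and 13.2 CPM to 92.5 and 117 CPM, a log2 fold change of 2.65. *Siglecg*, known from B cells, was at 2.49, but from 25 and 23 counts to 42 and 201, and without CD4/ALK4-KO replicate 2 it was 1.00, with an adjusted p of 0.122. *Vsir*, which encodes the checkpoint receptor VISTA of myeloid and T cells, had the highest mean CPM and was at 0.89, with an adjusted p of 0.115 without WT replicate 2. Relative to CD3, 7 of the 13 were lower and 0 higher, against 91.0% of all genes tested lower.

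Among 18 genes of CD28 and ICOS signalling, 13 were higher and 1 lower by TMM, with a median of 1.497. The shares over all genes tested were 17.4% higher and 15.4% lower by TMM. *Carmil2*, an adaptor of CD28, rose by 2.86 on the log2 scale. *Akt1*, a kinase that most cells use, fell by 0.87, and without WT replicate 1 its change of -0.68 did not pass the test (adjusted p = 0.171). *Pdk1*, of the highest mean CPM, was at 0.39 (adjusted p = 0.17). In the mouse this symbol stands for a mitochondrial pyruvate dehydrogenase kinase and not for the kinase that activates AKT, which is *Pdpk1*, so it is a metabolic gene within this list. Of 19 inhibitory phosphatases and adaptors, 15 were higher and 1 lower, with a median of 1.21. *Ubash3a*, a phosphatase-family regulator of T cell receptor signalling, rose by 3.09 and *Trat1*, a T cell receptor adaptor, by 2.51. *Inppl1*, an inositol phosphatase, fell by 0.89, a call lost when WT replicate 1 (-0.69) or CD4/ALK4-KO replicate 1 (-0.50) was left out, and *Sla*, of the highest mean CPM over all libraries but of neither genotype alone, rose by 1.33. On the CD3 scale, 2 of the 18 genes of CD28 and ICOS signalling were higher and 9 lower. Of the 19 phosphatases and adaptors, 1 was higher and 12 lower. Among all genes tested, 0.352% were higher and 91.0% lower on this scale, so both lists held a smaller share of lower genes.

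The 7 genes that carry CTLA-4 between endosomes and the cell surface were the least changed of these lists. By TMM, 3 were higher and 0 lower, against 17.4% and 15.4% of all genes tested, with a median of 0.47. *Trat1*, which belongs to this list too, led, *Lrba*, whose product keeps CTLA-4 from degradation, rose by 1.28, and *Rab8a*, of the highest mean CPM over all libraries though below *Rab11a* in WT, was at 0.47 (adjusted p = 0.10). Relative to CD3, 6 of the 7 were lower, near the 91.0% of all genes tested.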

How the data were processed

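RNA-Seq counts of 4 libraries, 2 per genotype, were analysed. Groups and replicate numbers were taken from the sample labels. Single-end reads of non-stranded libraries had been aligned by the authors with HISAT2 (mm10) and assigned to genes with HTSeq, and what they deposited are raw counts for each gene symbol, not normalized. Versions of these tools are not given in the sources used here.

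The counts were tested with edgeR 4.0.16 in R 4.3.3 (filterByExpr, TMM, a robust quasi-likelihood model of genotype alone, Benjamini-Hochberg adjustment over 13919 genes). The fit was repeated with each library scaled to its summed *Cd3e*, *Cd3d* and *Cd3g* counts. Both fits were run on simulated data. For the CD3 scale, the simulated chains moved by the same amount, unlike the chains here, so the effect of unequal chains was not covered. Replicates differed by more than sampling noise (chi-square per degree of freedom 16.9 in WT and 30.2 in CD4/ALK4-KO). Intervals of counts and shares cover counting error only, and PCR copies were not marked. Locations and exon lengths are those of GENCODE M21 on GRCm38.

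Every receptor, the CD3 chains, *Acvr1b* and *Cd4* were named. Of each related list, the rule named the largest called changes, up to 2 in each direction, and the gene with the highest mean CPM. Of these, 1 gene so named is not reported here. *Foxp3* and *Cd8a* were named after their values were seen. Members and lists were chosen with earlier results of these data known. Alternatives were other scalings, filters and tests (DESeq2 1.42.0), other CD3 scales, a replicate block and each library left out.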

Additional observations from a re-analysis of the deposited data

How the results depend on the processing

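By TMM, 9 receptors were higher and 0 lower under every other scaling, filter and test tried, and 8 to 9 were higher when 1 library was left out, the loss being *Lag3* without WT replicate 2. The median over the receptors was 1.93 to 2.14 without 1 library. On the CD3 scale, *Cd3e* alone gave 8 receptors lower instead of 1, the exceptions being *Pdcd1* and *Cd96*, and turned *Cd28* to -0.70 and *Cd4* to -0.32, which follows from the larger rise of *Cd3e*. The median on the CD3 scale was -0.34 with the geometric mean of the chains, -0.93 with *Cd3e* alone, 0.032 with *Cd3d* alone, and -0.24 to -0.038 without 1 library. Leaving out 1 library gave 1 to 2 receptors lower (2 without CD4/ALK4-KO replicate 2) and 0 to 1 higher (1 without CD4/ALK4-KO replicate 1). The cause of the other changes was not tested.

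The replicate numbers did not pair the libraries (correlation of their deviations -0.26). With the replicate block, 9 receptors were higher by TMM and 1 was lower on the CD3 scale, as without it, while calls over all genes went from 2422 higher and 2140 lower to 1768 and 1444. Crossed pairing, chosen after seeing the data, gave 3118 and 3037, with 9 receptors higher. Over all genes, leaving out WT replicate 1 gave 1135 higher and 775 lower, and leaving out WT replicate 2 gave 1394 and 1070. On the CD3 scale, 4 (*Cd3e* alone) to 103 (without CD4/ALK4-KO replicate 1) genes were higher, against 49. *Lag3* and *Tigit* had the fewest counts, and in *Lag3* the WT replicates differed beyond counting error.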
